A study of Mus musculus with 26 samples.

Results

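The regions described here carried acetylated lysine 27 of histone H3 (H3K27ac) in every library and lay outside every mapped site of RNA polymerase II (Pol II), Nur77 and input. Calls from the 8 H3K27ac ChIP-seq libraries that overlapped by 1 bp or more were joined into 77715 merged regions, of which 27094 were called in all 8. Of these, 3909 overlapped no Pol II region of any of the 8 Pol II libraries, and 2040 also overlapped no HA peak of any of the 6 HA libraries. Leaving out those over a peak or region called in the 4 input libraries left 1735 regions, 6.40% of the 27094, which are called the members below. The members were chosen by these H3K27ac, Pol II, HA and input calls, so their presence in all H3K27ac libraries and their lack of the other calls are not results.

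All libraries came from RAW264.7 cells, a mouse macrophage line, carrying a stable doxycycline-inducible transgene for HA-tagged Nur77 (Nur77 cells) or for GFP (GFP cells). Both lines received 50 ng/ml doxycycline for 18 h, so the untreated groups had it too, and the transgenic Nur77 added to whatever Nur77 the cells make themselves. Cells then received 500 ng/ml lipopolysaccharide (LPS), a bacterial cell wall component, for 1 h or were left untreated. H3K27ac had 2 libraries each for Nur77 cells with LPS, Nur77 cells untreated, GFP cells with LPS and GFP cells untreated, Pol II had the same groups with 2 libraries each, and HA was mapped in Nur77 cells only, with 3 libraries per condition, from chromatin fixed with DSG as well as formaldehyde. Whether each line was 1 clone or a pool is not given in the sources used here, and nothing says that replicates came from separate cultures, so p-values measure the spread between these libraries, which may be technical.

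H3K27ac is laid down by acetyltransferases such as CBP and marks active enhancers and promoters. Nur77, the product of Nr4a1, is an orphan nuclear receptor that binds DNA and is switched on quickly in stimulated macrophages. LPS acts through a Toll-like receptor, NF-kB and AP-1 and induces inflammatory genes in macrophages.

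Members seldom covered a transcription start site. Among the 1686 members for which start sites were at hand, 18 covered an annotated start, and these held 19 promoter windows of 300 bases (250 before to 50 after the start; RefSeq, GRCm38.p6, the same build as mm10). Among protein-coding genes, the 3 windows printed are those of the 2 with the largest line difference and the one with the highest signal; each reads 5′ to 3′ on the strand of its gene, and capitals mark a match to the AP-1 motif TGANTCA. They lie at chr15:83447831-83448130 on the minus strand (Pacsin2), chr17:48400531-48400830 on the minus strand (Nfya) and chr16:44820478-44820777 on the plus strand (Cd200r4).
Pacsin2: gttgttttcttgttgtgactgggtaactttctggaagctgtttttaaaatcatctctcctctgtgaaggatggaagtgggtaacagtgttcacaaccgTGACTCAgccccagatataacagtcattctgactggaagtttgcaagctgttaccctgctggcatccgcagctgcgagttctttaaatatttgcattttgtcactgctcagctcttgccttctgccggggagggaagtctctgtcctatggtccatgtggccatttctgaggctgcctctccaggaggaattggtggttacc
Nfya: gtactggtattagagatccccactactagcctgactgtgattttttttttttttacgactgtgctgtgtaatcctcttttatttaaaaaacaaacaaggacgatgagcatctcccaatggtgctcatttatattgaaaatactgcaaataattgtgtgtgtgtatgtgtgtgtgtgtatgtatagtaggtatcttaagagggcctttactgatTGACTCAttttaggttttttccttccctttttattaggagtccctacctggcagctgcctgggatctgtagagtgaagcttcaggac
Cd200r4: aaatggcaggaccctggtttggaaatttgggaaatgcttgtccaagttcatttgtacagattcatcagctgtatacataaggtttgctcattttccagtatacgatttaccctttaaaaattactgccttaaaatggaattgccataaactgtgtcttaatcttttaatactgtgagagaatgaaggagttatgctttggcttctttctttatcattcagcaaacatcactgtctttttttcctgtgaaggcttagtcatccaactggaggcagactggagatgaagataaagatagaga

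The 19 windows held few CpG dinucleotides, with a median of 4 and a G+C content of 46.7%, against 7 and 52.7% over all 32851 promoters. TGANTCA, searched on both strands, was present in the windows of Pacsin2, Nfya and the long non-coding Gm32795, and in 7.81% of all promoters. The TATA box letters TATAAA, on both strands, were present in those of Nfya and Sgms1, as the reverse complement TTTATA in both, and in 13.6% of all promoters. The Nur77 monomer motif (NBRE) AAAGGTCA, present on either strand in 1.51% of all promoters, was in none of the 19, and the PU.1 core GAGGAAGT, present in 3.20%, was in 1, that of E230032D23Rik. These are matches of letters, not sites of binding.

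Signal is given as normalized tags, the reads assigned to a region per 10 M mapped reads, summed over the pieces of the region that a library called and scaled between libraries by trimmed means. A piece that a library did not call adds nothing to the sum, so the counts of each comparison, and the changes of the members described most fully, are also given by tags per kb of called length (per kb). Changes are log2 differences of tags plus 1 with their SE from limma, fitted to all 27094 regions, and a region is called at a Benjamini-Hochberg adjusted p (FDR) under 0.05. Between the lines, the member over Pacsin2, which encodes a membrane-bending protein of endocytosis, had 34.8 and 44.8 tags in Nur77 cells after LPS and 42.4 and 50.5 in untreated Nur77 cells, against 15.7 and 10.0 in GFP cells after LPS and 25.3 and 29.3 in untreated GFP cells. All 4 Nur77 libraries lay above all 4 GFP libraries, and the difference was 1.16 ± 0.18 (SE, limma adjusted p = 0.000245), or 0.39 per kb (limma adjusted p = 0.00509). The member over Nfya, which encodes a subunit of the CCAAT-binding factor NF-Y, differed by 1.19 ± 0.25 (limma adjusted p = 0.00203) and was lower after LPS, by -0.90 ± 0.25 (limma adjusted p = 0.00719); per kb neither was called, at 0.08 and 0.12. The member over Cd200r4, a receptor gene of the CD200 receptor family, had 58.7, 49.4, 62.1 and 62.9 tags in the Nur77 libraries, below all 4 GFP libraries at 84.0, 77.1, 82.3 and 93.5, a difference of -0.53 ± 0.10 (limma adjusted p = 0.00102), with -0.16 per kb, not called.

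Other start sites inside members belonged to Acaca (acetyl-CoA carboxylase, the first step of fatty acid synthesis), Rreb1 (a zinc finger protein downstream of Ras), Mitf (a regulator of lysosome genes), Prkaca (a catalytic subunit of protein kinase A), Sgms1 (sphingomyelin synthase) and Alkbh4, and 9 windows belonged to long non-coding RNAs. After LPS the members over Rreb1 (1.43 ± 0.29, limma adjusted p = 0.000872), Acaca (1.13 ± 0.30, limma adjusted p = 0.00613) and Mitf (1.11 ± 0.24, limma adjusted p = 0.00133) were higher and that over Prkaca was lower (-0.80 ± 0.22, limma adjusted p = 0.00601). Per kb Acaca was at 0.39, Mitf at 0.38 and Prkaca at -0.27, all called, and Rreb1 at 0.19, not called. Those over Sgms1 (0.09 ± 0.20) and Alkbh4 (-0.16 ± 0.29) were not called.

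Members also covered 4 annotated microRNA hairpins, and a mature sequence for each of the 3 members that were called after LPS is shown 5′ to 3′ (the 5p arm where there are 2 arms) with the seed, bases 2 to 8, in capitals (RefSeq, GRCm38.p6). The 3 seeds differ from each other. MicroRNA levels were not measured.
miR-761: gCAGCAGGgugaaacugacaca
miR-5618-5p: uACCCUUUacaccguguagu
miR-7117-5p: uCUGGGGGcucagcugaggaua
The member with the miR-761 hairpin lies in Nrd1 (chr4:109016999-109019949) and was higher after LPS by 0.76 (limma adjusted p = 0.00236), and by 0.45 per kb (limma adjusted p = 0.00127). Those with miR-5618 in Tmem123 (chr9:7783812-7788520) and miR-7117 in Ank (chr15:27568759-27572662) were lower, by -0.58 (limma adjusted p = 0.00469) and -1.10 (limma adjusted p = 0.0168), but per kb they were at 0.06 and -0.20 and not called. The member with miR-7227, in Arid1a, was at 0.80 and not called (limma adjusted p = 0.0550).

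Members lay inside long protein-coding genes and away from their starts. Of the 1735 members, 1634 (94.2%) overlapped an annotated gene and 1604 (92.4%) a protein-coding gene, against 81.3% and 73.7% of the other 25359 regions called in all 8 libraries. The 18 members over a start site made 1.07%, against 33.9% of the other regions, and 79.6% lay over 10 kb from the nearest start, against 47.2%. The median distance to a start was 25.4 kb for members and 8.38 kb for the others. Host genes had a median length of 88.4 kb for members, against 49.9 kb for the others. Position within the host was at hand for 1287 members and 15137 other regions. The middle of the median member among these lay 53.4% of the way from start to end, against 21.6% for the others. Of these members, 13.2% lay in the first 20% of the host, against 48.6% of the others. These shares are descriptions, with no test. The division into exons and introns was not used here, since no exon annotation was at hand. Pol II is known to collect at starts, so choosing regions without it bears on these shares. Of the 1869 regions without Pol II that did hold an HA peak, 90.5% were in a gene, 2.09% over a start and 80.9% over 10 kb from one.

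**Figure D1:**
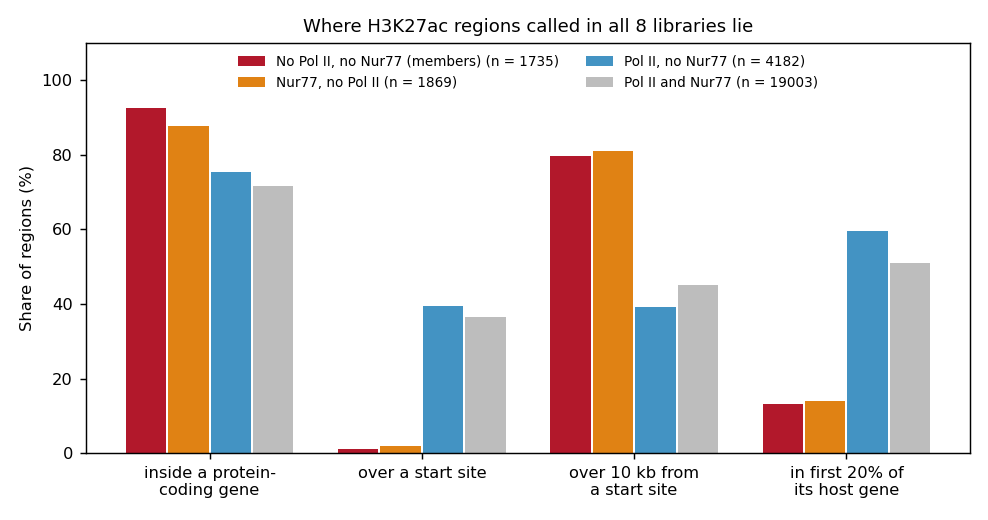
Share of H3K27ac regions (percent, vertical axis) in 4 positions, for members and 3 other classes of regions called in all 8 libraries; bars start at 0. Members and the regions with Nur77 but without Pol II show 1.07% and 2.09% over a start site, and the classes with Pol II are the tallest at start sites and in the first 20% of the host gene.

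The host genes themselves were occupied by Pol II. Of the 1604 members in a protein-coding gene, 1588 (99.0%) had a host with a Pol II region somewhere in its span in all 8 Pol II libraries, against 96.7% of the other regions. The nearest Pol II region was at a median of 8.92 kb and the nearest HA peak at 8.73 kb. Pol II lay within 5 kb of 549 members (31.6%) and over 50 kb away from 96 (5.53%). The 3 members closest to Pol II were in Lman2, Churc1 and Qrich1, with gaps of 13, 39 and 45 bp. Just outside the rule were a region in Usp3 that shared 32 bp with Pol II, one in Pld1 that shared 63 bp with an HA peak and one in Anp32a that shared 70 bp with Pol II. They had means of 25.1, 20.8 and 19.0 tags, against 11.8, 14.6 and 13.4 in the members just inside. A further 1062 regions met every condition but were called in 7 of the 8 H3K27ac libraries, with a median of 14.2 tags.

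The members farthest from Pol II were weak and few. The farthest lay 0.274 kb from Gm6214 on chromosome 3 (chr3:140837670-140838822), 1396 kb from any Pol II region, with 9.37 and 9.91 tags in Nur77 cells after LPS, 12.2 and 9.78 in untreated Nur77 cells, 19.2 and 17.4 in GFP cells after LPS, and 20.9 and 20.5 in untreated GFP cells. Its 4 Nur77 libraries all lay below its 4 GFP libraries. Next was a member in Nrxn3, a synaptic adhesion gene on chromosome 12 with no Pol II region in its span in any library, 980 kb from Pol II, at a mean of 11.5 tags. Usp13, a deubiquitinase gene, was the other host named here with no Pol II region in any library, and its member lay 117 kb from Pol II at a mean of 24.8 tags.

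Members were weak regions. Their median was 22.0 tags, with a range of 7.06 to 250, against 93.6 for the others. Per kb of called length it was 15.1 tags against 36.6, and their median width was 2438 bp against 3151 bp. Of the members, 79.5% fell in the lowest of 4 equal bins of signal over the 27094 regions, and 10 had a mean of at least 100 tags. Together they took 0.804% to 1.02% of the tags in regions called in all 8 libraries. Regions with HA and no Pol II were the closest class, at 31.0 tags and 17.2 tags per kb. The scaled median per library was 25.7 and 25.2 tags in Nur77 cells after LPS, 21.3 and 21.8 in GFP cells after LPS, 21.8 and 21.1 in untreated Nur77 cells and 18.5 and 21.0 in untreated GFP cells. As deposited, before scaling, these medians were 21.5, 22.7, 19.3, 19.7, 24.5, 23.3, 20.6 and 24.6 tags in the same order, so within each line the LPS medians lie above the untreated ones after scaling and not before it. Replicates correlated across members at r from 0.742 to 0.812 in log2 tags, against 0.983 to 0.989 across the other regions, and the median SE of an LPS change was 0.23 for members, against 0.10.

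The strongest member was in Sae1, which encodes a subunit of the SUMO-activating enzyme (chr7:16361795-16377891, 16.1 kb wide). It had 319 and 260 tags in Nur77 cells after LPS, 243 and 258 in GFP cells after LPS, 241 and 245 in untreated Nur77 cells, and 208 and 229 in untreated GFP cells, and ranked 5607 among all 27094 regions. Its LPS change was small, at 0.22 ± 0.07 (limma adjusted p = 0.0154). The widest, 28.3 kb, was in Peak1, a pseudokinase gene of the cytoskeleton (chr9:56284384-56312667), with 325, 345, 215 and 206 tags after LPS and 168, 188, 143 and 179 in untreated cells. Its LPS libraries lay above all untreated ones, at 0.65 ± 0.08 (limma adjusted p = 1.1e-05), or 0.32 per kb (limma adjusted p = 0.00458). Other strong members were in Pias1 (a SUMO ligase), Cd36 (a scavenger receptor for oxidized lipoprotein), Man1c1 (a mannosidase), Fndc3a, Papola (a poly(A) polymerase), Nceh1 (a cholesterol ester hydrolase) and Tpp2 (a peptidase). In Man1c1 the LPS libraries had 211, 161, 219 and 190 tags, against 79.4, 77.3, 89.3 and 99.2 in untreated ones, a change of 1.17 ± 0.09 (limma adjusted p = 4.1e-07), or 0.45 per kb (limma adjusted p = 0.000482).

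Some genes held several members. Members were assigned to 1324 genes, of which 277 had at least 2 members and 24 at least 4. Peak1 had 8, and Eea1 (an early endosome tether) and Gnaq (a G protein alpha subunit) had 6 each. After LPS 5 of the 6 in Eea1 were higher and none was lower, 3 of the 8 in Peak1 were higher and none lower, 1 of the 6 in Gnaq was higher, and 2 of the 5 in Eepd1 were lower. All 5 members in Lyn, a Src-family kinase of myeloid cells, were higher after LPS, by 0.33 to 1.37, and 3 of the 5 were called per kb, where they ran from 0.15 to 0.34. The member in Lyn with the smallest p (chr4:3741012-3747977) had 96.1, 115, 106 and 98.0 tags after LPS, against 63.4, 58.0, 55.9 and 64.6 untreated, which do not overlap (0.77 ± 0.10, limma adjusted p = 2.3e-05; 0.29 per kb). The member of Eea1 at chr10:95962806-95967046 had 80.1, 78.6, 67.1 and 68.4 tags after LPS, against 26.6, 36.0, 30.9 and 41.9 untreated (1.11 ± 0.14, limma adjusted p = 1.8e-05; 0.35 per kb). Members of 1 gene share its surroundings and are not independent of each other. Among all members 27.8% were called higher and 10% lower after LPS, and among all regions 34% and 32.2%.

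The LPS comparison asked which of these regions changed within 1 h over both lines. Members higher after LPS outnumbered lower ones: 483 were higher and 174 lower, 657 in all (37.9%), where 66.2% of all 27094 regions were called (34% higher and 32.2% lower). The median change was 0.22 over members, beside 0.01 over all regions. It was 0.10 in regions with an HA peak and no Pol II, and 0.36 in those left out of the members for input alone. The split depends on the scaling: without scaling factors 210 members were higher and 445 lower, with medians of -0.11 for members and -0.33 for all regions. Of all 27094 regions, 4873 were higher and 14503 lower without scaling factors. The shift of -0.33 is that of the whole table, and on either scale the members' median lay above that of all regions. By tags per kb of called length 660 were higher and 64 lower (38% and 3.69%, where 29.8% and 28% of all regions were). Tags per kb were scaled by trimmed means too, in every comparison, and were not fitted without scaling. Before scaling, the members' median tags per kb were 15.3 and 15.2 in Nur77 cells and 14.6 and 15.2 in GFP cells after LPS. In the untreated libraries they were 14.7, 14.7, 14.8 and 15.1. Those of the other regions were 31.3, 32.1, 34.2 and 34.4 after LPS, against 37.9, 38.1, 39.8 and 40.0 untreated. Of the 483 higher members, 210 were also higher without scaling, 348 by tags per kb (20.1% of members, where 25.2% of all regions were higher by both tags and tags per kb) and 173 in both. Of the 174 lower members, all 174 were also lower without scaling, but 39 were lower by tags per kb (2.25% of members, where 24.6% of all regions were lower by both) and 67 had the opposite sign there. The share of tags inside regions differed with treatment too, at 47.5% and 50.6% in Nur77 cells and 53.6% and 51.8% in GFP cells after LPS, against 56.8%, 56.2%, 57.2% and 59.5% in the untreated libraries; its part in the split was not tested.

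The largest rise was in Camk2d, which encodes a calcium/calmodulin-dependent kinase (chr3:126767634-126772753). It had 32.6 and 71.4 tags in Nur77 cells and 68.5 and 79.1 in GFP cells after LPS, against 9.41 and 5.44 in untreated Nur77 cells and 19.4 and 5.07 in untreated GFP cells. All LPS libraries lay above all untreated ones (2.67 ± 0.36, limma adjusted p = 3.5e-05). The length called was 3.62 kb after LPS, against 0.884 kb, and the change per kb was 0.46 (limma adjusted p = 0.000474). Pol II over Camk2d had 3704 and 3849 tags in Nur77 cells and 5500 and 3958 in GFP cells after LPS, against 1324, 1310, 1440 and 1505 in the untreated libraries, so Pol II on the host gene was higher too, at sites other than the member.

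The member in Slc16a10, a transporter of aromatic amino acids (chr10:40036084-40040037), had 81.4 and 64.4 tags in Nur77 cells and 43.4 and 29.1 in GFP cells after LPS, against 8.45, 5.28, 6.69 and 13.9 in the untreated libraries. The change was 2.51 ± 0.25 (limma adjusted p = 2.9e-06), or 0.69 per kb (limma adjusted p = 1.8e-05). That in Srgap2, a GTPase-activating protein of membrane protrusion (chr1:131331738-131336545), had 89.2 and 92.3 tags in Nur77 cells and 63.6 and 49.2 in GFP cells after LPS, against 28.5, 24.3, 6.02 and 15.02 untreated (2.09 ± 0.23, limma adjusted p = 5.6e-06), a change of 0.40 per kb. Mean Pol II over Slc16a10 was 2295 tags after LPS, against 643, and over Srgap2 9304, against 1289. In the hosts of the other 7 largest rises, named next, it was 480 after LPS, against 470, over Emsy, 175 against 144 over Psmb7, 867 against 762 over Pum2 and 769 against 698 over Ercc6l2. It was lower after LPS over Tpx2 (153 tags, against 232), Evi5 (494, against 572) and Ecpas (400.5, against 546). Emsy (a transcriptional repressor that binds BRCA2), Psmb7 (a proteasome subunit), Tpx2 (a spindle protein), Pum2 (an RNA-binding repressor), Evi5, Ecpas (a proteasome adaptor) and Ercc6l2 (a DNA repair helicase) completed the 10 largest rises, at 1.79 to 2.19. Per kb all 10 were also called higher, at 0.25 to 0.69, and in all 10 the LPS and untreated libraries did not overlap. Over 202 members (11.6%) all 4 LPS libraries lay above all 4 untreated ones, where 21.7% of all regions did.

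The largest fall was at a site 3.41 kb from Napb, a gene of vesicle fusion (chr2:148735832-148737791). It had 8.03 and 12.4 tags in Nur77 cells and 11.9 and 6.62 in GFP cells after LPS, against 31.0, 22.9, 35.0 and 37.5 untreated, a change of -1.62 ± 0.24 (limma adjusted p = 7.4e-05) and of -0.57 per kb (limma adjusted p = 0.000185). In Map2k5, a MAP kinase kinase gene (chr9:63245547-63248065), the LPS libraries had 18.8, 9.68, 6.96 and 9.80 tags, against 41.8, 43.6, 26.8 and 28.5 untreated (-1.61 ± 0.23, limma adjusted p = 5.2e-05), with a change per kb of -0.19 that was not called (limma adjusted p = 0.155). Fundc1 (mitophagy receptor), Nectin1 (adhesion molecule), Eif4g3 (translation initiation factor), Fli1 (an ETS factor), Fabp3 (a fatty acid carrier), Hpcal1 (a calcium sensor), Thumpd3 (a tRNA methyltransferase) and Fubp1 (a DNA-binding regulator of Myc) followed, at -1.58 to -1.38. The libraries did not overlap in any of these 10 except Fli1. Per kb Nectin1 (-0.26), Eif4g3 (-0.27) and Fabp3 (-0.47) were also called lower, and Hpcal1 (-0.17) and Thumpd3 (-0.17) were not called. The change per kb was positive and not called in Fundc1 (0.02) and Fubp1 (0.08), and in Fli1 it was called higher (0.28, limma adjusted p = 0.00841), the opposite of its call by tags. All 4 LPS libraries lay below the untreated ones in 85 members (4.9%), where 21.9% of all regions did.

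**Figure D2:**
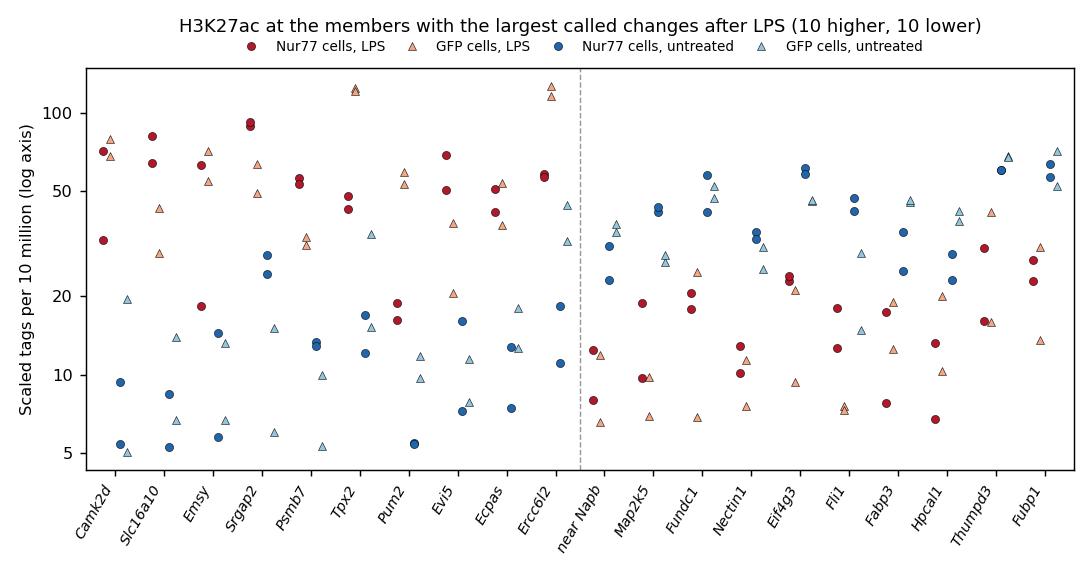
Scaled H3K27ac tags per 10 M (log axis) in each of the 8 libraries for the 10 members with the largest rise (left of the dashed line) and the 10 with the largest fall after LPS; each point is 1 library, red for LPS and blue for untreated. The red points lie above the blue ones on the left, for example 32.6 to 79.1 against 5.07 to 19.4 in Camk2d, and below them on the right except in Fli1.

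**Figure D3:**
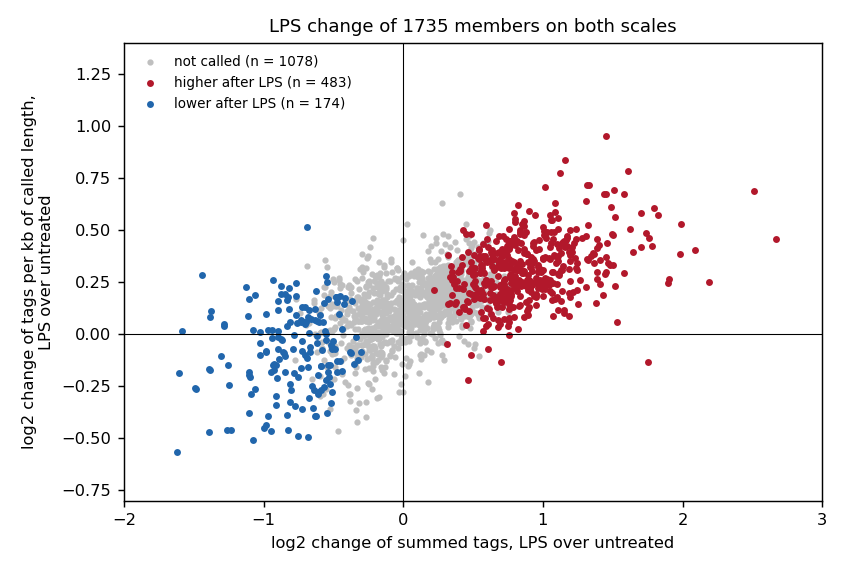
Each point is 1 of the 1735 members, with the log2 LPS change of its summed tags on the horizontal axis and of its tags per kb of called length on the vertical axis. The 483 members higher by tags lie mostly above 0 on both axes, while 67 of the 174 lower members lie above 0 on the vertical axis.

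Within each line, LPS was compared with untreated cells alone. In Nur77 cells 356 members were higher and 97 lower after LPS (26.1%, where 55.6% of all regions were called, 28.5% higher and 27.1% lower). In GFP cells 252 were higher and 125 lower (21.7%, where 53% were called, 27.5% higher and 25.5% lower). Both splits turn with the scaling. Without scaling factors 174 members were higher and 277 lower in Nur77 cells, and 117 higher and 324 lower in GFP cells. Of all 27094 regions, 4014 were then higher and 12616 lower in Nur77 cells, and 4053 higher and 12245 lower in GFP cells, so the turn is that of the whole table. Per kb 434 were higher and 31 lower in Nur77 cells (26.8% in all, where 44.4% of all regions were called, 22.5% higher and 21.9% lower), and 232 higher and 34 lower in GFP cells (15.3%, where 40.8% were called, 20.5% higher and 20.3% lower). Leaving out 1 untreated library lowered the number of calls in its line, among members and among all regions. The median change of members in Nur77 cells was 0.26, and 0.28 and 0.21 without untreated Nur77 replicates 1 and 2. In GFP cells it was 0.15, and 0.05 and 0.21 without untreated GFP replicates 1 and 2. In both lines 140 members (8.07%) were higher and 46 (2.65%) lower, where 22.6% and 20.8% of all regions were, and 2 had opposite calls (0.115%, where 0.166% of all regions had). Of the 657 members called over both lines, 648 had the same sign in each. That call is on the mean of the 2 lines, so this count is largely given by the choice and is no comparison of the lines. Members with large rises in Nur77 cells included those in Ints7, a subunit of the Integrator complex that ends snRNA transcription (2.71 ± 0.38, limma adjusted p = 8.5e-05; 0.33 per kb), and Slc23a2, a vitamin C transporter (2.26 ± 0.52, limma adjusted p = 0.00299; 0.45 per kb). Large falls there included Eepd1 (-2.06 ± 0.23, limma adjusted p = 1.4e-05) and Cdk8, a Mediator kinase (-1.78 ± 0.24, limma adjusted p = 5.4e-05), which had tags of 7.76 and 6.75 after LPS against 29.6 and 25.3 in untreated Nur77 cells. In GFP cells the member in Kansl1, a subunit of a histone acetyltransferase complex, was lower (-1.67 ± 0.45, limma adjusted p = 0.00764), with 28.9 and 6.86 tags after LPS against 41.3 and 55.7. Its change per kb was 0.07, that of Eepd1 0.07 and that of Cdk8 -0.04.

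The difference between the lines in their LPS change was called in 1 member, where 0.594% of all regions were called by limma (0.118% higher and 0.476% lower). It was in Stt3b, a catalytic subunit of the oligosaccharyltransferase (chr9:115299663-115304161). In Nur77 cells it had 15.3 and 20.9 tags after LPS, against 27.3 and 44.2 untreated, and in GFP cells 19.0 and 25.9 after LPS, against 6.02 and 7.85 untreated. The LPS change in Nur77 cells minus that in GFP cells was -2.48 ± 0.46 (limma adjusted p = 0.0395). Per kb it was -0.03, and without scaling factors no member was called. The call was lost without any 1 of 7 of the 8 libraries and held without Nur77 LPS replicate 2, with adjusted p from 0.0459 to 0.248 and the sign kept.

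Pol II over the host genes gave a readout the choice of members used only at the member itself. Of 395 protein-coding host genes with a member higher after LPS, 67 (17%) had more Pol II tags in all 4 LPS libraries than in all 4 untreated ones and 66 (16.7%) had fewer. Of 157 hosts of a lower member, 11 (7.01%) had more and 44 (28%) had fewer, and of 828 hosts of an uncalled member 81 (9.78%) had more and 190 (22.9%) had fewer. Over all 10401 host genes of regions called in all 8 libraries the shares were 9.89% and 24.8%. Pol II tags are as deposited, without scaling, and a gene with members of several kinds stands in several counts. Of the hosts with large falls in H3K27ac, Fli1 had a mean of 735 Pol II tags after LPS, against 1731, while Map2k5 had 418, against 414.

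The lists of genes drawn up for a stimulated macrophage, with earlier results of these data known, were read beside the 6.40% of all regions called in all 8 libraries that were members; no share was tested. None of the 25 regions called in all 8 libraries over or near cytokine and chemokine genes was a member, none of 51 at immediate-early genes and none of 8 at genes of other cell types. Members made 2 of 70 regions of the NF-kB list, both in Traf3, 1 of 30 of the AP-1 list, in Atf2, and 3 of 43 of the interferon list (6.98%), in Irf2. In Traf3, an adaptor of Toll-like receptor signalling, 1 member was higher (0.99 ± 0.26, limma adjusted p = 0.00503) and the other lower (-0.57 ± 0.22, limma adjusted p = 0.0352) after LPS; by tags per kb the other was at 0.15. In Irf2, an interferon regulatory factor, 1 member was higher (1.00 ± 0.24, limma adjusted p = 0.00264), 1 lower (-0.54 ± 0.18, limma adjusted p = 0.0205), and the remaining one, at -0.24, was not called by tags but was called higher per kb (0.42, limma adjusted p = 0.000816). The member in Atf2 was at -0.24 ± 0.19.

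Macrophage lineage genes held 8 members among 77 regions (10.4%), in Fli1, Mef2c, Msr1 and Runx1, of which 3 were higher and 3 lower after LPS, with a median of 0.30. The changes in this paragraph are by tags alone, and of all 174 members lower by tags, 39 were also lower per kb. Of all members 27.8% were called higher and 10% lower after LPS, and of all regions 34% and 32.2%. Counts in a list were not tested against these shares. Runx1, a transcription factor of blood cell development, had 3: 2 higher (0.90 ± 0.28 and 0.49 ± 0.16) and 1 lower (-0.67 ± 0.15, limma adjusted p = 0.00207). In Mef2c, a myeloid transcription factor, 1 was lower (chr13:83631480-83634577, -1.03 ± 0.16, limma adjusted p = 0.000139), with 23.8, 25.4, 19.4 and 14.0 tags after LPS against 46.0, 36.3, 42.4 and 44.0 untreated. The member in the scavenger receptor gene Msr1 was higher (0.82 ± 0.22, limma adjusted p = 0.00593). So were, among 6 members (8% of 75 regions) of the lysosome and lipid list, those in Mitf, in Plin2, a lipid droplet coat protein (0.70 ± 0.24, limma adjusted p = 0.0237), and in Cd36 (0.38 ± 0.07, limma adjusted p = 0.000755); of these 6, 4 were higher and 1 lower, the lower one in Tfeb, a regulator of lysosome genes (-0.53 ± 0.15, limma adjusted p = 0.00967).

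The structural and signalling lists come next, with changes by tags alone unless per kb is named. Their counts stand beside 27.8% of all members called higher and 10% lower after LPS, and 34% and 32.2% of all regions. They are not read as particular to a list. The cytoskeleton, adhesion and phagocytosis list had 29 members in 15 genes among 203 regions (14.3%), of which 8 were higher and 2 lower, with a median of 0.33. In Lpp, which encodes a focal adhesion protein, the member at chr16:24772417-24774848 had 41.2 and 42.6 tags in Nur77 cells and 22.0 and 24.7 in GFP cells after LPS, against 9.68, 11.0, 7.36 and 6.22 untreated (1.78 ± 0.19, limma adjusted p = 5.3e-06). The groups did not overlap, nor did they in Actn1, a crosslinker of actin (1.13 ± 0.18, limma adjusted p = 0.000133). Dock1, an activator of Rac in phagocytosis, changed by 1.76 ± 0.22 (limma adjusted p = 1.9e-05) in tags and by -0.13 per kb, with 1.82 kb called after LPS against 0.501 kb. The kinase and G protein list had 24 members in 11 genes among 211 regions (11.4%), 8 higher and none lower, with a median of 0.15. The chromatin regulator list had 17 members in 11 genes among 143 regions (11.9%), 2 higher and 2 lower: Hdac9, a deacetylase, rose (1.25 ± 0.33, limma adjusted p = 0.00575), as did Ezh2, the methyltransferase of Polycomb (0.47 ± 0.18, limma adjusted p = 0.0353), and Arid1b, a subunit of a remodelling complex, fell (-0.89 ± 0.18, limma adjusted p = 0.000841). Of the 2 housekeeping members (8.33% of 24 regions), that in Pgk1 was at 1.53 ± 0.38 (limma adjusted p = 0.00385; 0.06 per kb) and that in Ywhaz at 0.01 ± 0.54.

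The comparison of the lines asked where cells with induced HA-Nur77 differed from cells with GFP at regions without an HA peak. Over both conditions 409 members were higher and 216 lower in Nur77 cells, 625 in all (36%), where 47.2% of all regions were called (23% higher and 24.2% lower). The median difference was 0.16 over members, beside -0.01 over all regions. It was 0.17 in the regions with an HA peak and no Pol II, so the shift was not particular to regions without HA. Per kb the median was 0.07 in both of these classes. By tags per kb of called length 310 members were called (17.9%, where 28% of all regions were), 243 higher and 67 lower (14% and 3.86%, where 13% and 15% of all regions were). Of the 409 higher members 173 were also higher per kb (9.97% of members, where 11.2% of all regions were higher on both scales), and of the 216 lower ones 58 were also lower per kb (3.34%, where 13% of all regions were). All 4 Nur77 libraries lay above all 4 GFP libraries in 206 members (11.9%), where 9.18% of all regions did, and below them in 100 (5.76%), where 10% did. The 2 lines are separate stable transfections, so a difference due to Nur77 and a difference that the lines already had cannot be told apart.

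The largest difference was in Rasgrp3, which encodes an exchange factor that activates Ras and Rap (chr17:75515218-75520470). It had 43.1 and 56.6 tags after LPS and 57.0 and 65.2 untreated in Nur77 cells, against 7.18 and 9.31 after LPS and 5.68 and 10.7 untreated in GFP cells. The lines did not overlap in either condition (2.63 ± 0.22, limma adjusted p = 1.5e-06), and 4.05 kb was called in Nur77 cells, against 0.670 kb. Per kb the difference was 0.18 and not called (limma adjusted p = 0.0926), and the nearest HA peak was 2.97 kb away. In Bicral, a subunit of a SWI/SNF remodelling complex (chr17:46828638-46831239), Nur77 cells had 36.9, 47.1, 59.7 and 52.3 tags, against 10.9, 9.80, 13.2 and 13.2 in GFP cells, a difference of 1.96 ± 0.17 (limma adjusted p = 1.9e-06) that held per kb (0.79, limma adjusted p = 1.9e-05). Fndc3b followed at 1.89 ± 0.26 (0.39 per kb) and Lpp (chr16:24613201-24617338) at 1.79 ± 0.33; the groups overlapped in Lpp, where Nur77 cells had 51.7, 65.5, 28.8 and 11.7 tags and GFP cells 19.8, 7.10, 5.35 and 7.69. Sec31a (a vesicle coat protein of the endoplasmic reticulum), Atp9b (a lipid flippase), 2510009E07Rik, Lrrk1 (a kinase), Celf1 (a splicing regulator) and Aff1 (a subunit of an elongation complex) made up the rest of the 10 largest, at 1.62 to 1.75. Lrrk1 had 32.4, 30.8, 28.8 and 27.9 tags in Nur77 cells, against 7.18, 7.84, 10.5 and 10.7 in GFP cells, and 0.53 per kb (limma adjusted p = 0.00195). For 2510009E07Rik the sign turned per kb, to -0.15.

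The largest difference in the other direction lay 3.60 kb from Scg2, a secretogranin gene (chr1:79428503-79430768). It had 21.2 and 14.2 tags after LPS and 4.85 and 8.75 untreated in Nur77 cells, against 44.4, 48.5, 50.0 and 47.0 in GFP cells (-2.04 ± 0.21, limma adjusted p = 8.8e-06; -0.81 per kb, limma adjusted p = 1.6e-05). In Usp13 the Nur77 libraries had 22.0, 20.1, 6.73 and 5.78 tags, against 46.6, 37.2, 26.4 and 36.6 in GFP cells (-1.55 ± 0.19, limma adjusted p = 3.4e-05; -0.66 per kb). Stag2, a cohesin subunit (-1.72 ± 0.24), Cadm1, an adhesion molecule (-1.48 ± 0.45), and Tbc1d9b (-1.43 ± 0.17) were also among the 10 largest falls, but per kb Stag2 was at 0.06 and Cadm1 at 0.01. The other 5 of the 10, in Cep128, Papola, Nin, Heatr5a and at chr12:5505557-5508048, were all on chromosome 12.

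**Figure D4:**
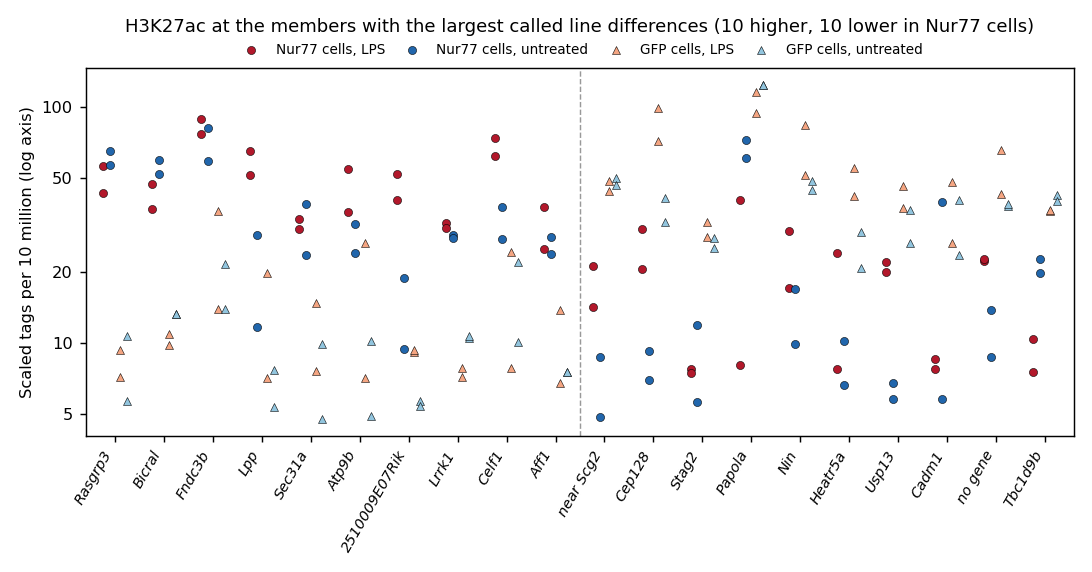
Scaled H3K27ac tags per 10 M (log axis) in each of the 8 libraries for the 10 members with the largest positive (left of the dashed line) and the 10 with the largest negative difference between Nur77 and GFP cells; circles are Nur77 and triangles GFP libraries, 1 point each. In Rasgrp3 the circles lie between 43.1 and 65.2 and the triangles between 5.68 and 10.7.

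Chromosome 12 stood apart between the lines. Its 65 members had a median difference of -0.59, with 53 of them below 0, 35 called lower and 2 called higher, while member medians on the other 19 chromosomes ran from -0.03 to 0.27. Other H3K27ac regions on chromosome 12 had a median of -0.58, where the other chromosomes ran from -0.06 to 0.07. Pol II regions called in all 8 Pol II libraries had a median of -0.53 on chromosome 12 (667 regions), where the other chromosomes ran from -0.02 to 0.05. The H3K27ac shift spanned the whole chromosome: medians of its 12 windows of 10 Mb ran from -0.69 to -0.49. Regions called in input, which is chromatin without immunoprecipitation, lay on chromosome 12 in 4.20% of cases in Nur77 cells after LPS and 4.24% in untreated Nur77 cells, against 34.4% in GFP cells after LPS and 28.3% in untreated GFP cells. Copy number was not measured otherwise, and its part in the line differences on this chromosome was not tested. Cep128, a centriole gene, is an example: Nur77 cells had 30.5, 20.5, 9.23 and 6.94 tags, against 72.3, 99.4, 32.5 and 41.2 in GFP cells (-1.89 ± 0.19, limma adjusted p = 7.7e-06), and the difference per kb was -0.37. In the member of Papola at chr12:105820654-105831796 the difference was -1.67 ± 0.34 in tags and -0.06 per kb. Off chromosome 12 there were 1670 members, of which 407 were higher and 181 lower in Nur77 cells, with a median of 0.18. Calls of the other regions were not counted by chromosome. The member counts on and off chromosome 12 therefore have no share of all regions beside them and are not read as particular to members.

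**Figure D5:**
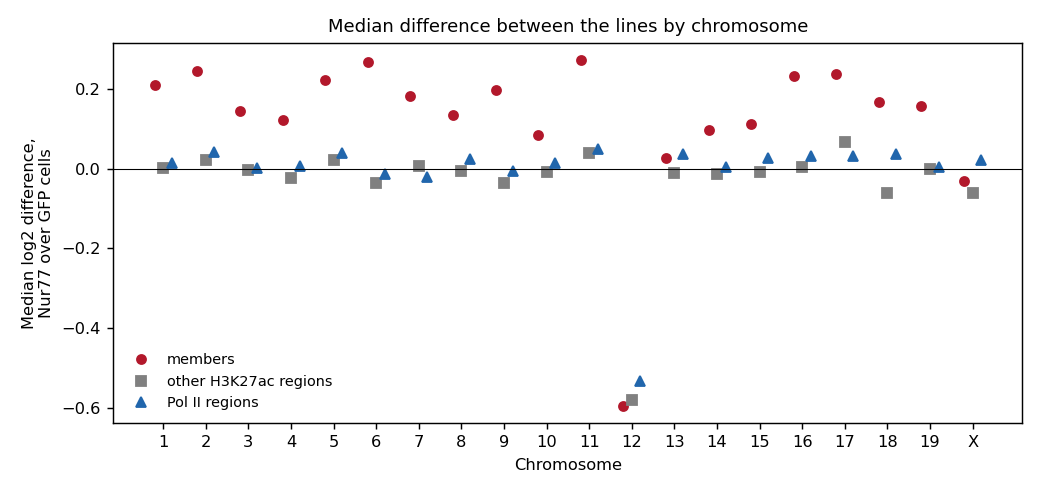
Median log2 difference between Nur77 and GFP cells (vertical axis) on each chromosome, for members, the other H3K27ac regions called in all 8 libraries and Pol II regions called in all 8 Pol II libraries. On chromosome 12 the 3 medians are -0.59, -0.58 and -0.53, and elsewhere member medians lie between -0.03 and 0.27.

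Line differences were called in fewer members within 1 condition. After LPS 286 members were higher and 110 lower in Nur77 cells (22.8%, where 36% of all regions were called, 16.5% higher and 19.5% lower), and in untreated cells 192 were higher and 144 lower (19.4%, where 30.8% were called, 15.4% higher and 15.3% lower). Per kb 124 members were higher and 28 lower after LPS (8.76% in all, where 16.9% of all regions were called, 7.13% higher and 9.74% lower), and 80 higher and 43 lower in untreated cells (7.09%, where 14.2% were called, 6.73% higher and 7.44% lower). After LPS 77 members were higher and 19 lower on both scales (4.44% and 1.1%, where 5.66% and 8.48% of all regions were). The untreated counts moved with single libraries. Without any 1 untreated library fewer members were called, and fewer of all regions too. The split of members turned without untreated Nur77 replicate 1 and widened without untreated GFP replicate 2. Their median difference in untreated cells was 0.10. It was 0.07 and 0.14 without untreated Nur77 replicates 1 and 2, and -0.02 and 0.18 without untreated GFP replicates 1 and 2. After LPS the median was 0.21, and 0.17 and 0.22 without GFP LPS replicates 1 and 2, where fewer members and fewer of all regions were called. The 2 comparisons share no library, and 110 members (6.34%) were higher and 49 (2.82%) lower in both, where 10.4% and 11.4% of all regions were, with 2 opposite calls (0.115%, where 0.148% of all regions had them). After LPS, Snd1, a component of the RNA-induced silencing complex, was among the largest, at 45.3 and 70.1 tags in Nur77 cells against 9.80 and 14.0 in GFP cells (2.17 ± 0.31, limma adjusted p = 0.00025; 0.24 per kb, limma adjusted p = 0.254). In untreated cells the members in Vps13a, a lipid transport protein (2.01 ± 0.43, limma adjusted p = 0.00383), and Cntrl, a centrosome protein (1.98 ± 0.28, limma adjusted p = 0.000241), were higher, at 0.46 and 0.35 per kb. Those in Cyp27a1, a sterol hydroxylase (-1.85 ± 0.34, limma adjusted p = 0.00162), and in Adam17, the protease that releases TNF, on chromosome 12 (-1.95 ± 0.34, limma adjusted p = 0.00115), were lower; in Adam17 untreated Nur77 cells had 5.79 and 7.59 tags, against 26.3 and 30.9 in untreated GFP cells, and the difference per kb was -0.16.

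Regions of like signal were set beside the members. In the lowest of 4 equal bins of signal, 1379 members had a median LPS change of 0.23 and a median line difference of 0.19, while the 5396 other regions of that bin had 0.03 and 0.03. After LPS 34.5% of these members were called, against 47.5% of the other regions in the bin, and between the lines 33.7%, against 35.8%. Within the bin members were weaker, at a median of 19.7 tags against 23.5. In bin 2 from the lowest, the LPS and line medians were 0.13 and 0.10 for 335 members, against -0.07 and 0.02 for the others. In bin 3 they were 0.45 and -0.07 for 19 members, against -0.07 and -0.02, and bin 4 held 2 members. These are descriptions, and no gap was tested.

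Libraries held 22.3 to 28.4 M tags for H3K27ac and 14.0 to 23.4 M for input. HA libraries held 6.41 to 18.2 M and Pol II libraries 11.9 to 23.1 M, so a lack of a Pol II or HA call is a lack at those depths. One Pol II library, replicate 1 of untreated Nur77 cells, was called with 1550 bp fragments, where the rest had 174 to 318 bp. Of 10 macrophage markers all 10 had H3K27ac in all 8 libraries, and of 12 markers of other cell types 2 did, Cd4 and Krt8, at 21.4 tags or less. The B cell marker Pax5 had it in 7 libraries. Pol II was called in all 8 Pol II libraries over 9 of the macrophage markers, with Mertk in 4. Among the others it was called in all 8 over 1, Pax5 (mean 30.0 tags), in 5 over Cd4 (mean 295 tags) and in 1 over Rbfox3.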

How the data were processed

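The deposited files hold, for each of the 26 libraries, called peaks (HA, input) or regions (Pol II, H3K27ac, input) with a normalized tag signal. The submitters' processing notes name mm10, HISAT2 2.1.0 and HOMER; per the file headers HOMER made its calls per library and without input, and the signal is the deposited tag count per 10 M mapped tags. It is not a whole count, so no count model was used. Per the file headers, 3 H3K27ac libraries (GFP LPS 1, GFP untreated 1 and Nur77 untreated 1) were called without switching off the filter on local signal. Both Nur77 LPS libraries had it off, so the groups differ in this setting. Its part in the called lengths and in the comparisons was not tested.

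Regions were merged at a 1 bp overlap, tags were summed per library and scaled by trimmed means of M-values (30% of M and 5% of A trimmed), and log2(tags + 1) was fitted with limma 3.58.1 (R 4.3.3) with a trend and 4 group means over all 27094 regions called in all 8 libraries, adjusted by Benjamini-Hochberg at an FDR of 0.05. The 1 added to the tags shrinks log2 changes of low regions. Pieces that a library did not call add nothing to its sum, which can enlarge such changes. Genes are RefSeq spans (GRCm38.p6), with the nearest within 50 kb named as near; start sites come from RefSeq promoters. Named members were chosen by rule: up to 10 per direction with the largest called change over both lines, over both conditions and in the difference between lines, 5 in the other contrasts, the 10 strongest, the 5 widest, the 5 farthest from Pol II, the 5 genes with most members, the 3 smallest p per list, and 3 on each side of the rule; examples outside it (3 of the 5 members in Lyn, 2 of the 3 in Runx1, those in Msr1 and Plin2, and the other members over start sites and microRNAs) were chosen after their values were seen. Members, the 12 lists and tests were chosen with earlier results of these data known. Same-numbered replicates did not deviate together. 1 gene that the rule names is not reported here. The fit was tested on simulated data, with log2 changes put into 200 members and the members' median spread given to every region. At a log2 change of 1 it recovered 64.5% for LPS over both lines and 13% for LPS in GFP cells. At a log2 change of 2 it recovered 100% and 99.5%.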

Additional observations from a re-analysis of the deposited data

Results flagged for a closer look

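The LPS change of the member in Stt3b (chr9:115299663-115304161) differed between the lines by the test of that difference itself, at -2.48 ± 0.46 on the log2 scale (limma adjusted p = 0.0395). In Nur77 cells it was lower after LPS, with 15.3 and 20.9 tags against 27.3 and 44.2 untreated, and in GFP cells higher, with 19.0 and 25.9 against 6.02 and 7.85. The length called was 0.632 kb in untreated GFP cells, where the other 3 groups had 1.08 to 3.34 kb, and per kb of called length the difference was -0.03. The call was lost without scaling factors (limma adjusted p = 0.0521) and without any 1 of 7 of the 8 libraries; it held without Nur77 LPS replicate 2. Over these 8 fits the adjusted p ran from 0.0459 to 0.248 and the difference from -2.81 to -2.14.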

How the results depend on the processing

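Counts of called members kept within 1.5 times of those reported under median-of-ratios scaling, a pseudocount of 5, a minimum mean of 20 tags, merging at 100 bp, leaving out members within 1 kb of other regions, and a rule without input, in the 6 comparisons other than the difference between lines. Requiring at least 15 tags per called region left 487 members and 217, 130, 170, 197, 120 and 139 calls (LPS over both lines, in GFP and in Nur77 cells; line over both conditions, untreated and after LPS). By tags per kb of called length the 3 line counts were 310, 123 and 152, and the call in Stt3b was lost (0 calls, as without scaling factors). Leaving out each library in turn gave 537 to 630 members for LPS over both lines, 244 to 405 in GFP cells, 301 to 445 in Nur77 cells, 504 to 581 for the line over both conditions, 167 to 371 untreated, 265 to 396 after LPS and 0 to 5 for the difference between lines; where 1 library is left in a group it is assumed to vary like the others.

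Replicate numbers did not pair the libraries, with correlations of same-numbered deviations from -0.10 to 0.09. With replicate number as a block the counts were 679, 397, 472, 649, 360, 422 and 1, in the order LPS over both lines, GFP, Nur77, line over both conditions, untreated, after LPS, difference. Of the 483 members higher and 174 lower after LPS, 473 and 172 were shared with the block fit.

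Of 103 named results, 50 kept direction and call under every alternative run. The sign turned in 18, all by tags per kb of called length: after LPS in Fundc1 (0.0159), Fli1 (0.2831), Fubp1 (0.0805), Traf3 (0.1495), Irf2 (0.4164) and Dock1 (-0.1313) over both lines, in Kansl1 (0.0668) in GFP cells and in Eepd1 (0.0713) and Papola (0.1013) in Nur77 cells; between the lines in 2510009E07Rik (-0.1467), Stag2 (0.0587) and Cadm1 (0.0111) over both conditions, in Papola (0.0827), Cdk8 (0.0301), 2510009E07Rik (-0.223), Stag2 (0.1071) and Cadm1 (0.0531) after LPS and in Stt3b (-0.0334) untreated. That scale divides by a length that itself differs between libraries; the cause of the turns was not tested. With 2 libraries per group and weak regions, members without a call are not shown to be unchanged. Leaving out members on chromosome 12, chosen after seeing the data, kept the line counts within 1.5 times.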
